A study of Mus musculus with 13 samples.

Results

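The core pluripotency genes described here are Pou5f1, Sox2, Sall4, Utf1, Lin28a, Lin28b, Dppa2 and Dppa4. They were taken by symbol from the deposited expression table, of which they are 8 of 25965 rows, as genes that naive and primed pluripotent cells both express. All 8 passed the filter on low values, which asked for 0 or more as the average log2 CPM in the 12 shRNA libraries and which 13406 rows passed. A log2 CPM is the base 2 logarithm of the CPM of a gene, its reads scaled to a fixed total of mapped reads.

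Pluripotent cells of the mouse are held in place by a small set of transcription factors in which OCT4 (the product of Pou5f1) and SOX2 bind DNA side by side and sustain their own genes and those of their partners. Naive cells, kept in 2i, resemble the inner cell mass, and primed cells resemble the epiblast after implantation. OCT4 and SOX2 are used in both states, whereas other factors mark one of them. SALL4 is a zinc finger protein that recruits the NuRD deacetylase complex, UTF1 is a chromatin-bound protein of undifferentiated cells, LIN28A and LIN28B bind RNA and block maturation of let-7 miRNAs, and DPPA2 and DPPA4 act as a heterodimer on CpG-rich promoters and on genes of the 2-cell embryo.

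RNA-seq was performed on female F1 mESCs with an FVB/NJ mother and a CAST/EiJ father. The cells grew in 2i and were then moved stepwise into DME HiHi medium, in which they differentiate without direction. The Day0 library came from undifferentiated cells. The other 12 libraries came from days 4, 5, 6 and 7, and on each day 1 library carried a nonsilencing control shRNA (Nons) and 1 each carried a hairpin against Smarcc1, called Smarcc1.6 or Smarcc1.7, delivered by virus on day 2 with puromycin from day 3. All groups share the F1 genotype, and the 3 shRNA groups share transduction and selection, which Day0 did not have. The product of Smarcc1 is a scaffold protein of BAF, a chromatin remodelling complex. Each group had 1 library a day, and the 4 days took the place of replicates. Since nothing says that they came from separate cultures, p-values measure only the spread between these libraries. Whether 1 cell line or several gave these libraries is not given in the sources used here.

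The hairpin target sites are shown because the 2 hairpins address distinct coding sequences of the same transcript. Each site is the longest run that the published hairpin sequence shares with an annotated Smarcc1 transcript, and no other annotated gene holds either of them. The site of Smarcc1.6 lies in exon 13 of 29 at chr9:110177473-110177493, and that of Smarcc1.7 lies in exon 11 at chr9:110173912-110173932 (GRCm38, plus strand, both 21 bases, coding). Each occurs in 5 of the 9 annotated Smarcc1 transcripts.
Smarcc1.6: caggatgaagaagcagttaca
Smarcc1.7: cagaaggaagaagatgagcaa

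Smarcc1 was reduced to 43.9% of same-day Nons by Smarcc1.6 (log2 difference -1.19 ± 0.48, SD, n = 4 days) and to 52.5% by Smarcc1.7 (-0.93 ± 0.37, SD, n = 4 days), so the knockdown was partial. It was smallest on day 7 with both hairpins, with differences of -1.68 and -1.14 for Smarcc1.6 and Smarcc1.7 on day 4, -1.47 and -1.08 on day 5, -0.995 and -1.11 on day 6, and -0.61 and -0.38 on day 7. The Nons level itself went from log2 CPM 9.10 on day 4 to 7.89 on day 7. The depth ran from 13993440 to 63548093 mapped reads per library. At Day0 the pluripotency markers Nanog, Zfp42 and Esrrb stood at log2 CPM 10.47, 8.98 and 9.08. The 4 libraries of Day0 and day 6 had 85.3% to 86.5% of their reads in genes, against 91.6% to 92.6% in the other 9, and 559 of 13406 genes (4.17%) stood 1 log2 unit or more away on day 6 from days 5 and 7 in all 3 groups. None of the 8 pluripotency genes was among these 559 (0 genes). Differences between hairpins and Nons were taken within a day and so within 1 of these sets, whereas comparisons of day 6 or Day0 with other days cross them.

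Knockdown and control differed at 4 of the 8 genes. Sox2, Dppa2 and Dppa4 were higher in knockdown by 1.61-, 1.56- and 1.62-fold, Sall4 was lower at 85.5% of Nons, and Pou5f1, Utf1, Lin28a and Lin28b did not pass the test. The test was limma with day as a factor over all 13406 genes, with Benjamini-Hochberg adjustment and a threshold of 0.05. Of all tested genes 11.6% passed, 6.88% higher and 4.77% lower. The median log2 change of the 8 genes was 0.14, against -0.01 for all tested genes. In bulk RNA, fewer cells that express a gene and less RNA per cell cannot be told apart.

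**Figure D1:**
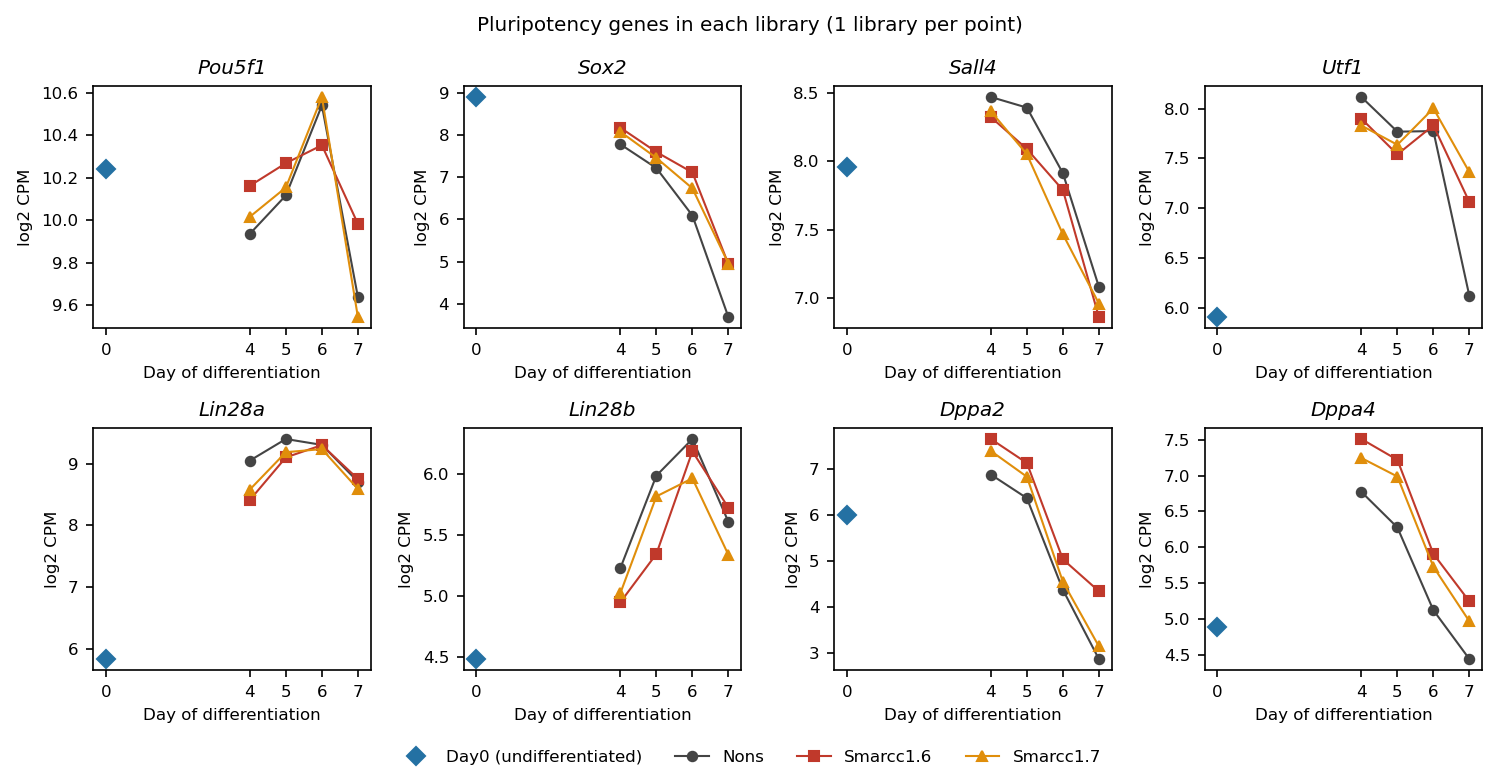
Log2 CPM (y axis) of each gene against the day of differentiation (x axis), 1 point per library, with lines joining the days of Nons, Smarcc1.6 and Smarcc1.7 and a diamond for Day0. Sox2, Dppa2 and Dppa4 fall over days 4 to 7 with both hairpin lines above Nons, Sall4 falls with both below it, and Pou5f1 stays between 9.55 and 10.58.

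Levels of different genes were compared per length, as CPM per kilobase of exon. Pou5f1 was the most abundant member in each of the 13 libraries, at 332 to 681 CPM per kb. Utf1 (49.0 to 226) and Lin28a (14.3 to 169) came next by their medians of 178 and 132, followed by Sox2 (6.26 to 231, median 72.1). Sall4 ranged from 21.04 to 64.0, Dppa4 from 13.1 to 110 and Dppa2 from 2.96 to 82.3. Lin28b was the least abundant at Day0, at 2.46 CPM per kb, and its highest value was 8.60. The ranges of Utf1, Lin28a, Sox2, Sall4, Dppa4 and Dppa2 overlapped with that of the next gene in this order.

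**Figure D2:**
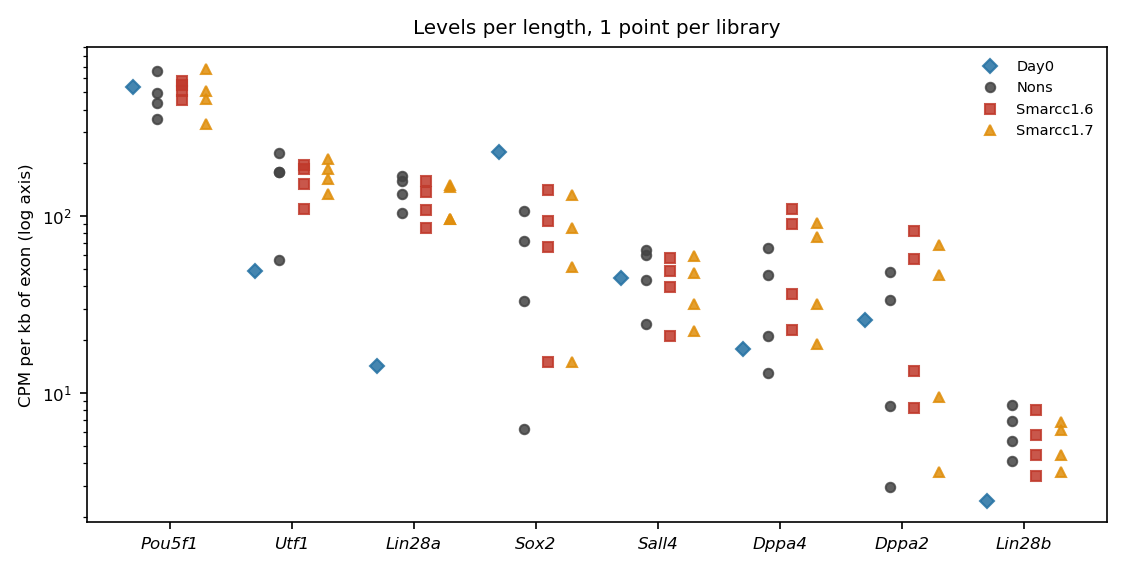
CPM per kilobase of exon (y axis, log scale) for each gene (x axis, ordered by median over the 13 libraries), 1 point per library with Day0, Nons, Smarcc1.6 and Smarcc1.7 side by side. Pou5f1 lies above 332 throughout, and Sox2 spreads from 6.26 to 231.

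Pou5f1 (chromosome 17, 35506037 to 35510776, plus strand, mm10) encodes OCT4, the POU factor on which both pluripotent states depend. At Day0 its log2 CPM was 10.24. The Nons libraries had 9.94, 10.12, 10.54 and 9.64 on days 4, 5, 6 and 7. Smarcc1.6 gave 10.16, 10.27, 10.35 and 9.98, and Smarcc1.7 gave 10.02, 10.15, 10.58 and 9.55. The 12 values lay on both sides of Day0, and the hairpin values straddled Nons, higher in 6 of 8 same-day comparisons. The knockdown change was 0.07 ± 0.08 (SE), with a 95% interval of -0.11 to 0.26 (limma adjusted p = 0.604). The order of the days was 6, 5, 4 and 7, and only day 6 stood clear of its neighbour, day 5, while the ranges of days 5 and 4 and of days 4 and 7 overlapped.

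No trend with day was called for Pou5f1 (-0.06 per day, interval -0.25 to 0.12, limma adjusted p = 0.539). The call depended on which days were used. Day 7 minus day 4 was -0.32 (adjusted p = 0.033), without day 7 the change was 0.23 per day (adjusted p = 0.00987), and without day 6 it was -0.12 (adjusted p = 0.0356). Pou5f1 shares 11.4% of the 75-base windows of its longest transcript with Gm19553, an annotated antisense gene, and whether reads were counted by strand is not given in the sources used here. The log2 CPM of Gm19553 ran from 7.23 to 8.17 and followed Pou5f1 more closely than any other tested gene did, so the rows cannot be taken as separate measurements.

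Sox2 (chromosome 3, 34650005 to 34652461, plus strand) encodes the HMG-box partner of OCT4 and is also used by neural progenitors. Its log2 CPM was 8.89 at Day0. Nons gave 7.78, 7.21, 6.09 and 3.69 on days 4 to 7. The Smarcc1.6 libraries had 8.17, 7.59, 7.11 and 4.94, and those of Smarcc1.7 had 8.07, 7.45, 6.73 and 4.95. Both hairpins were above Nons on each of the 4 days, and the ranges of the 4 days did not overlap, in the order 4, 5, 6 and 7. Sox2 fell by 1.12 log2 units per day (interval -1.40 to -0.84, limma adjusted p = 3.04e-05). From day 4 to day 7 it dropped 17.0-fold in Nons, 9.38-fold with Smarcc1.6 and 8.69-fold with Smarcc1.7.

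The knockdown change of Sox2 was 0.69 ± 0.13 (SE) on the log2 scale, 1.61-fold, with a limma adjusted p of 0.00888. It was higher in 8 of 8 same-day comparisons, by 0.24 to 1.27, a pattern that 7.89% of tested genes also had. The mean of the differences was 0.33 on days 4 and 5 and 1.05 on days 6 and 7, although the change of the difference per day was not called (0.33, interval -0.22 to 0.88, limma adjusted p = 1.00). The 2 widest Sox2 differences, 1.25 and 1.27, fell on day 7, when those of Smarcc1 were smallest. In 6 of 6 comparisons from day 5 on, the hairpin level lay between the Nons level of that day and that of the day before. Without day 6 the adjusted p was 0.0638. The Sox2 row lies inside Sox2ot on the same strand. Sox2ot was low, from log2 CPM 2.48 down to -2.31, and was also above same-day Nons with both hairpins on each day, and its part in the Sox2 values was not tested.

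The bases upstream of Sox2 and Pou5f1 are shown because one of these partners passed the test in knockdown and the other did not. They come from RefSeq (GRCm38.p6) and hold the 250 bases before the annotated start on the plus strand, at chr3:34649745-34649994 and chr17:35505782-35506031. Of the 8 genes, Sox2, Pou5f1, Utf1, Lin28a and Lin28b had an entry. In all, 4 motifs were searched on both strands, namely the octamer ATGCAAAT, the SOX core CATTGT, the GC box GGGCGG and the TATA box TATAAA, and capitals mark the matches found.
Sox2: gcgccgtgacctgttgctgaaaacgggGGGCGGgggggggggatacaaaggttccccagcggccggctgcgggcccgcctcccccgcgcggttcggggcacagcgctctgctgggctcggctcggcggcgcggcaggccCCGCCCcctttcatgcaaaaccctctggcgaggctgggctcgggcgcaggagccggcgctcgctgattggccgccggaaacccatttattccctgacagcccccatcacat
Pou5f1: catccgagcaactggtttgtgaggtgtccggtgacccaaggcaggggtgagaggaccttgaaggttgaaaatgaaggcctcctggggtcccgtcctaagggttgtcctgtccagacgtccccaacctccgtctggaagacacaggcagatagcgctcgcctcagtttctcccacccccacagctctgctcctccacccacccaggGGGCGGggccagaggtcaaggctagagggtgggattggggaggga

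The Sox2 window held 2 GC boxes, 27 CG pairs and 72.0% G or C, and that of Pou5f1 held 1 GC box, 8 CG pairs and 62.0% G or C. GC boxes were present in 32.7% of 32851 promoter windows of this length, the SOX core in 10.7%, the TATA box in 12.4% and the octamer in 1.601%, and the median window had 6 CG pairs. A second annotated Pou5f1 start, with its window at chr17:35508557-35508806, had 45.6% G or C, 1 SOX core and no GC box (0). Utf1 had 4 GC boxes, and Lin28a had 1 SOX core. Lin28b, at 39.2% G or C, held none of the 4 motifs. These are matches of letters in 1 window and say nothing of binding.

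Sall4 (chromosome 2, 168748332 to 168767943, minus strand) encodes a zinc finger factor that acts with OCT4 and with NuRD. Its log2 CPM was 7.96 at Day0. Across the Nons libraries the level was 8.47, 8.39, 7.91 and 7.08 on days 4 to 7. Smarcc1.6 stood at 8.32, 8.09, 7.79 and 6.86 and Smarcc1.7 at 8.36, 8.05, 7.47 and 6.96. Nons held the highest value on each of the 4 days. The days fell in the order 4, 5, 6 and 7, with overlap only between days 4 and 5. Sall4 fell by 0.47 log2 units per day (interval -0.58 to -0.36, limma adjusted p = 1.77e-05), 2.61-fold in Nons from day 4 to day 7.

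Sall4 was lower in knockdown by a small amount, with a log2 change of -0.23 ± 0.06 (SE) and a limma adjusted p of 0.0411. All 8 same-day differences were negative, from -0.45 to -0.10, a pattern that 7.10% of tested genes had. The call was close to the threshold, and 12 of 16 fits that left out a library or a day lost it, with adjusted p-values up to 0.217. The change stayed between -0.26 and -0.19 in those 16 fits. Sall4 shares 4.38% of its 75-base windows with the non-coding transcript Gm14261.

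Utf1 (chromosome 7, 139943789 to 139945112, plus strand), a gene of undifferentiated and primed cells, stood at log2 CPM 5.91 at Day0. Nons read 8.12, 7.77, 7.77 and 6.12 on days 4 to 7. Under Smarcc1.6 the values were 7.90, 7.54, 7.83 and 7.06, and under Smarcc1.7 they were 7.83, 7.64, 8.003 and 7.36. The 12 libraries lay above Day0, by 4.62-fold in Nons on day 4 and by 1.16-fold in Nons on day 7. Days 4 and 6 overlapped, day 5 stood below them, and day 7 was lowest. Utf1 fell by 0.31 per day (interval -0.54 to -0.08, limma adjusted p = 0.0256). That call was lost without day 4, 5 or 7, and without day 7 the change was -0.04 per day.

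Utf1 was below same-day Nons in 4 of 4 comparisons on days 4 and 5 (mean -0.22) and above it in 4 of 4 on days 6 and 7 (mean 0.62). Over all days the knockdown change was 0.20 (interval -0.17 to 0.57, limma adjusted p = 0.475). Its difference from Nons changed by 0.44 per day (interval 0.04 to 0.83), which did not pass adjustment (limma adjusted p = 0.865). On day 7 the hairpin levels were 7.06 and 7.36 against 6.12 in Nons, the widest gap for this gene, on the day when the Smarcc1 differences were smallest.

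Both LIN28 genes lay above Day0 in each of the 12 shRNA libraries. Lin28a (chromosome 4, 134003330 to 134018841, minus strand), which binds let-7 precursors in the cytoplasm, began at log2 CPM 5.83 in Day0. The control level was 9.05, 9.40, 9.30 and 8.71 on days 4 to 7. For Smarcc1.6 the levels were 8.41, 9.10, 9.30 and 8.75, and for Smarcc1.7 8.58, 9.18, 9.23 and 8.59. Each of the 12 libraries lay far above Day0, by 9.27-fold in Nons on day 4 and by 7.32-fold on day 7. Days 6 and 5 overlapped, as did days 7 and 4, and the first pair stood above the second. The linear change was 0.01 per day (limma adjusted p = 0.957), but it was -0.27 without day 4 (adjusted p = 0.0329) and 0.30 without day 7 (adjusted p = 0.0123).

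Lin28b (chromosome 10, 45376620 to 45470201, minus strand), the paralogue that can act in the nucleus, began at log2 CPM 4.48 in Day0. Nons libraries stood at 5.23, 5.98, 6.28 and 5.61 on days 4 to 7. Smarcc1.6 libraries read 4.95, 5.34, 6.18 and 5.72, and Smarcc1.7 libraries read 5.02, 5.81, 5.96 and 5.33. Its peak was on day 6 in all 3 groups, with days 6, 5 and 7 overlapping in turn and day 4 below them. The linear change was 0.19 per day (interval -0.03 to 0.41, limma adjusted p = 0.123). The call depended on the days used. The change was 0.54 per day without day 7 (adjusted p = 0.000535) and -0.0798 without day 4 (adjusted p = 0.662), and day 7 minus day 4 was 0.49 (adjusted p = 0.0141).

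Neither LIN28 gene was called in knockdown. Lin28a changed by -0.22 ± 0.08 (SE, limma adjusted p = 0.0949) and Lin28b by -0.23 ± 0.10 (SE, limma adjusted p = 0.154), and each was lower in 7 of 8 same-day comparisons. On days 4 and 5 both were lower in 4 of 4 comparisons, with means of -0.40 for Lin28a and -0.32 for Lin28b, and on days 6 and 7 the means were -0.04 and -0.14. Fitted on days 4 and 5 alone, Lin28a passed (-0.40, limma adjusted p = 0.0332). Their 95% intervals over all days, -0.40 to -0.04 and -0.46 to -0.01, reach down to 0.760 and 0.729 of the Nons level.

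Dppa4 (chromosome 16, 48283735 to 48294292, plus strand) and Dppa2 (chromosome 16, 48310477 to 48319723, plus strand) are neighbours 16185 bases apart and encode the 2 SAP-domain proteins of 1 heterodimer. Dppa4 stood at log2 CPM 4.88 in Day0. The Nons series was 6.77, 6.28, 5.12 and 4.44 on days 4 to 7. Smarcc1.6 had levels of 7.51, 7.22, 5.91 and 5.24, and Smarcc1.7 levels of 7.25, 6.99, 5.73 and 4.97. Smarcc1.6 was highest, Smarcc1.7 second and Nons lowest on each of the 4 days. Days 4 and 5 overlapped, as did days 6 and 7, and the early pair stood above the late one. Dppa4 fell by 0.81 per day (interval -0.94 to -0.69, limma adjusted p = 1.94e-06).

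The knockdown change of Dppa4 varied little from day to day. Smarcc1.6 was above same-day Nons by 0.82 ± 0.09 (SD, n = 4 days) and Smarcc1.7 by 0.58 ± 0.10 (SD, n = 4 days). Together the change was 0.70 ± 0.08 (SE), 1.62-fold, with a limma adjusted p of 0.00145, and it stayed past the threshold in 16 of 16 fits that left out a library or a day. In 3 of 6 comparisons from day 5 on, the hairpin level exceeded the Nons level of the day before as well. From day 4 to day 7 Dppa4 dropped 5.04-fold in Nons, 4.81-fold with Smarcc1.6 and 4.86-fold with Smarcc1.7, so the gap kept its size while the level fell.

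Dppa2 stood at log2 CPM 5.99 in Day0. Values in Nons were 6.88, 6.37, 4.37 and 2.86 on days 4 to 7. Levels under Smarcc1.6 were 7.65, 7.13, 5.03 and 4.34, and under Smarcc1.7 7.39, 6.83, 4.54 and 3.13. The order of the groups was the same as for Dppa4 on each day, and only days 4 and 5 overlapped. Dppa2 fell by 1.37 per day (interval -1.60 to -1.14, limma adjusted p = 3.08e-06).

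The knockdown change of Dppa2 was 0.64 ± 0.18 (SE), 1.56-fold, with a limma adjusted p of 0.0454. By hairpin it was 0.92 ± 0.38 (SD, n = 4 days) for Smarcc1.6 and 0.36 ± 0.16 (SD, n = 4 days) for Smarcc1.7. It was higher in 8 of 8 comparisons, yet the joint call was lost in 12 of 16 fits that left out a library or a day, with adjusted p-values up to 0.166. In the model of 3 groups, the change for Smarcc1.6 stayed past the threshold in 16 of 16. Fitted on the Smarcc1.6 and Nons libraries only, it did not pass (0.92, limma adjusted p = 0.0556).

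**Figure D3:**
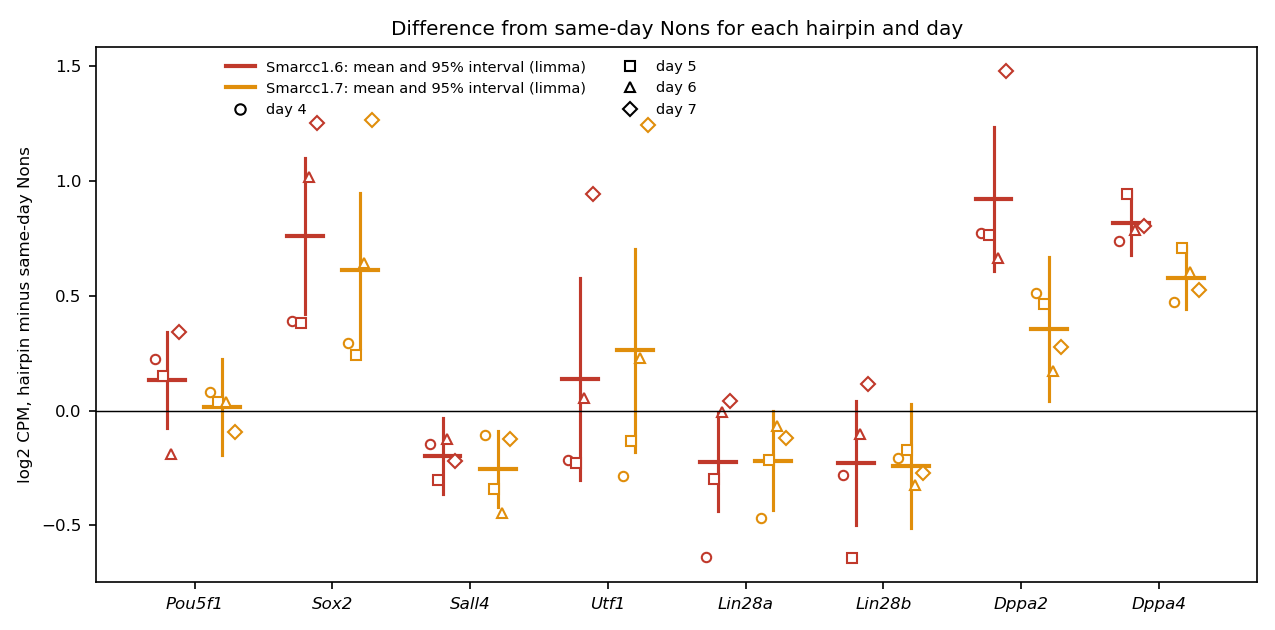
Log2 CPM of each hairpin library minus the Nons library of the same day (y axis) for each gene (x axis), with 1 symbol per day, and bars for the mean and 95% interval from limma for Smarcc1.6 and Smarcc1.7. All 8 points lie above 0 for Sox2, Dppa2 and Dppa4 and below 0 for Sall4, and those of Utf1 lie on both sides.

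The Dppa2 row cannot be read across days without its processed pseudogene. Gm9788 (chromosome 19, 41459813 to 41460718, plus strand) is a single-exon copy that differs from the Dppa2 transcript at 6 of 906 aligned bases, with a run of 381 identical bases. The stretch of 75 coding bases in exon 2 of Dppa2 with the most differences is shown because the read length is the same, and most reads from the copied part have fewer differences to be placed by. It lies at chr16:48311588-48311662 and in Gm9788 at chr19:41459859-41459933 (GRCm38, plus strand). Capitals mark the 4 differences, which are A2G, A64T, C65T and G75C, with positions counted from the first base printed and the Dppa2 base given first.
Dppa2: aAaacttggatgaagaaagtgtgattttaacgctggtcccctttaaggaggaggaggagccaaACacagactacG
Gm9788: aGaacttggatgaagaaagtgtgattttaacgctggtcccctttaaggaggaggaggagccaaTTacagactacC

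Gm9788 took 51.0% to 55.6% of the summed CPM of both rows in the 4 libraries of Day0 and day 6, and 10.5% to 17.3% in the other 9. Its log2 CPM was 6.06 at Day0, above Dppa2 itself, and 4.43, 5.36 and 4.82 on day 6 in Nons, Smarcc1.6 and Smarcc1.7. These are the same 4 libraries that had fewer reads in genes. Whether the split follows from how reads were placed there was not tested.

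With both rows summed, the log2 CPM at Day0 was 7.02 and that of Nons was 7.07, 6.53, 5.40 and 3.13 on days 4 to 7. On its own row Dppa2 in Nons on day 4 was 1.86-fold above Day0, and in the sum it was 1.03-fold. The step from day 5 to day 6 in Nons was -1.997 on its own row and -1.13 in the sum, and that from day 6 to day 7 was -1.51 and -2.27. Over all days the knockdown change was little affected, at 0.65 in the sum (limma adjusted p = 0.0403) and 0.64 on its own row. On day 6 the Gm9788 share was 51.0% in Nons, 55.6% with Smarcc1.6 and 54.8% with Smarcc1.7. Both differences from Nons on that day were therefore wider in the sum than on the Dppa2 row. The fall per day was 1.26 in the sum (limma adjusted p = 9.79e-06).

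**Figure D4:**
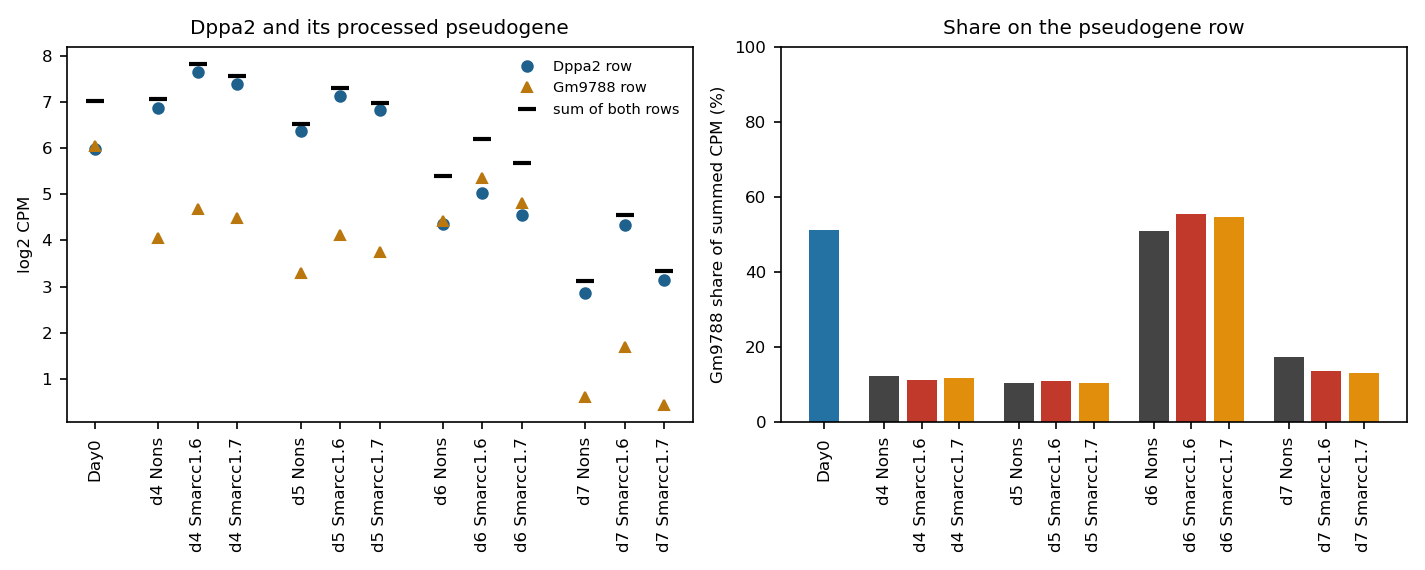
Left, log2 CPM (y axis) of the Dppa2 row, the Gm9788 row and their sum in each of the 13 libraries (x axis), and right, the percent of the summed CPM on the Gm9788 row. The share is 51.0% to 55.6% in Day0 and day 6 and at most 17.3% elsewhere, while the order of the groups within a day is the same for the Dppa2 row and the sum.

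Dppa4 has processed pseudogenes too. One of them, Gm5501, held 3.66% to 3.92% of the summed CPM in Day0 and day 6 and 0.133% to 0.525% in the other libraries, again higher in the same 4. In Nons on day 4, Dppa4 was 3.58-fold above Day0 in the sum and 3.71-fold on its own row. Of the 75-base windows of the longest transcript, 25.7% of those of Dppa2 and 23.7% of those of Dppa4 occur in a pseudogene, against 0% for Sox2, Utf1 and Lin28b (0 windows). The pseudogenes Gm8023 of Dppa2 and Gm14058 of Dppa4, which share 15.5% and 19.9% of these windows, were not analysed here.

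Each hairpin was then taken alone, in a model of 3 groups. With Smarcc1.6 3 of the 8 genes were called, all higher, where 9.30% of tested genes were called and 5.59% were higher. They were Dppa2 (0.92, limma adjusted p = 0.00478), Dppa4 (0.82, 0.00027) and Sox2 (0.76, 0.0142). With Smarcc1.7 Dppa4 alone was called (0.58, limma adjusted p = 0.00615), where 2.45% of tested genes were called and 1.69% were higher, and Sox2 was at 0.61 with an adjusted p of 0.062. Both comparisons share the 4 Nons libraries and a common estimate of the spread. Sall4 changed by -0.20 and -0.25 and passed with neither hairpin alone.

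Set against each other, the 2 hairpins gave no called gene in limma (0 of 13406, with 530 at an unadjusted p under 0.05). The intervals of the difference describe its size gene by gene, are not adjusted for the number of genes, and do not show that the hairpins differ. Smarcc1.6 was above Smarcc1.7 by 0.56 for Dppa2 (interval 0.25 to 0.88) and by 0.24 for Dppa4 (interval 0.10 to 0.38), and in both cases Smarcc1.6 was the highest group on 4 of 4 days, with a limma adjusted p of 0.989 for each. For Lin28a the difference was -0.01 (interval -0.22 to 0.21), for Lin28b 0.02 (interval -0.26 to 0.29) and for Sall4 0.05 (interval -0.11 to 0.22). Utf1 had the widest interval, from -0.57 to 0.32.

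Over time, 5 of the 8 genes fell between days 4 and 7 and none was called as rising (0 genes), where 60.5% of tested genes changed with day, 25.6% falling and 34.9% rising. The 5 were Dppa2, Sox2, Dppa4, Sall4 and Utf1, in order of size. The median change of the 8 genes was -0.39 per day against 0.04 for all tested genes. The difference between knockdown and Nons changed with day for no gene (0 of 13406 in limma, with 745 at an unadjusted p under 0.05), Utf1 among those 745.

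The other genes of the network were set beside them, from lists of naive factors, primed genes and targets. Of 12 naive factors 9 were higher in knockdown and none was lower, with a median log2 change of 1.02, where 6.88% of all tested genes were higher. The 4 largest changes were in Nr0b1 (1.79, limma adjusted p = 0.0488), Prdm14 (1.62, 0.00193), Nr5a2 (1.52, 0.00663) and Klf4 (1.40, 0.0128). Esrrb and Zfp42 rose by 1.00 and 1.11, and Nanog, at 0.74, had an adjusted p of 0.0859. Nr0b1 had under 3 reads in Nons on day 7, so its value depends on the number written for 0 reads.

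Of 10 formative and primed genes 2 were higher, namely Otx2 (0.61, limma adjusted p = 0.0167) and Dnmt3a (0.69, 0.0344), and the list median was 0.16, again beside 6.88% of all tested genes. Neither was called with either hairpin alone, and on day 4 both genes were below Nons with both hairpins. Fgf5 (-0.21, limma adjusted p = 0.415) and Dnmt3b (0.20, 0.388) were not called. At Day0 Fgf5 was at log2 CPM -4.48, which is 1 read, and in Nons it ran from 5.42 to 6.67.

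Of 9 genes known to be bound by OCT4 and SOX2, 6 were higher and none lower, with a median of 0.77, against the same 6.88%. The 4 largest were Fbxo15 (1.58, limma adjusted p = 0.00193), Fgf4 (1.35, 0.00565), Zfp42 (1.11, 0.00250) and Dppa5a (1.03, 0.00278), of which Zfp42 is also a naive factor. Fbxo15 in Nons ran from log2 CPM 6.27 on day 4 to 3.39 on day 7, and with Smarcc1.6 from 7.74 to 4.97. Among 7 POU and SOX paralogues 6 were tested and 3 were higher (6.88% of all tested genes were), Sox1 (2.07, limma adjusted p = 0.0478), Sox15 (1.24, 0.00339) and Sox21 (1.01, 0.0280). In Nons on days 4 to 7 Sox1 ran from 0.55 down to -2.89 and Sox21 from 0.17 down to -1.19, both below 0 on average. Sox1 and Sox21 therefore passed the filter only through the hairpin libraries, and the count of 3 rests partly on the knockdown values themselves. Sox1, a neural gene, had 1 read at Day0.

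Genes of the 2-cell stage, listed as targets of DPPA2 and DPPA4, were also set beside the members. Whether Dppa2 or Dppa4 had a part in their levels here was not tested. Of 10 listed genes 8 were in the table, 6 were tested, and all 6 were higher, with a median of 1.92, against 6.88% of tested genes. Zscan4e averaged below 0 in Nons, at log2 CPM -2.31, 1.30, -0.49 and -3.89 on days 4 to 7. It passed the filter only through the hairpin libraries, so the count of 6 rests partly on the knockdown values themselves. Zscan4e, Zscan4d, Zscan4b and Tcstv1 changed by 2.44, 1.96, 1.95 and 1.88 (limma adjusted p = 0.0260, 0.00983, 0.0176 and 0.00333). Zscan4e had under 3 reads in Nons on day 7, against log2 CPM 2.07 with Smarcc1.6 and 0.50 with Smarcc1.7. Its gaps from Nons were widest on that day, so its change leans on that low value. Zscan4d in Nons was at log2 CPM -0.90, 2.98, 2.31 and -0.57 on days 4 to 7, and with Smarcc1.6 at 1.10, 3.71, 4.59 and 3.63. By hairpin 6 were called with Smarcc1.6 and 1 with Smarcc1.7. The Zscan4 genes are near-identical copies whose reads could be split between rows, so they are not 4 separate measurements.

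Among the partners of SALL4 and of the LIN28 proteins, the number called was near the share of all tested genes, 6.88% higher and 4.77% lower. Of 14 SALL family and NuRD genes 1 was higher, Mta3 (0.21, limma adjusted p = 0.0391), with a list median of -0.03. Of 13 genes of the LIN28 and let-7 pathway 1 was lower, the RNA-binding protein gene Igf2bp3 (-0.39, limma adjusted p = 0.0154), with a list median of -0.09.

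**Figure D5:**
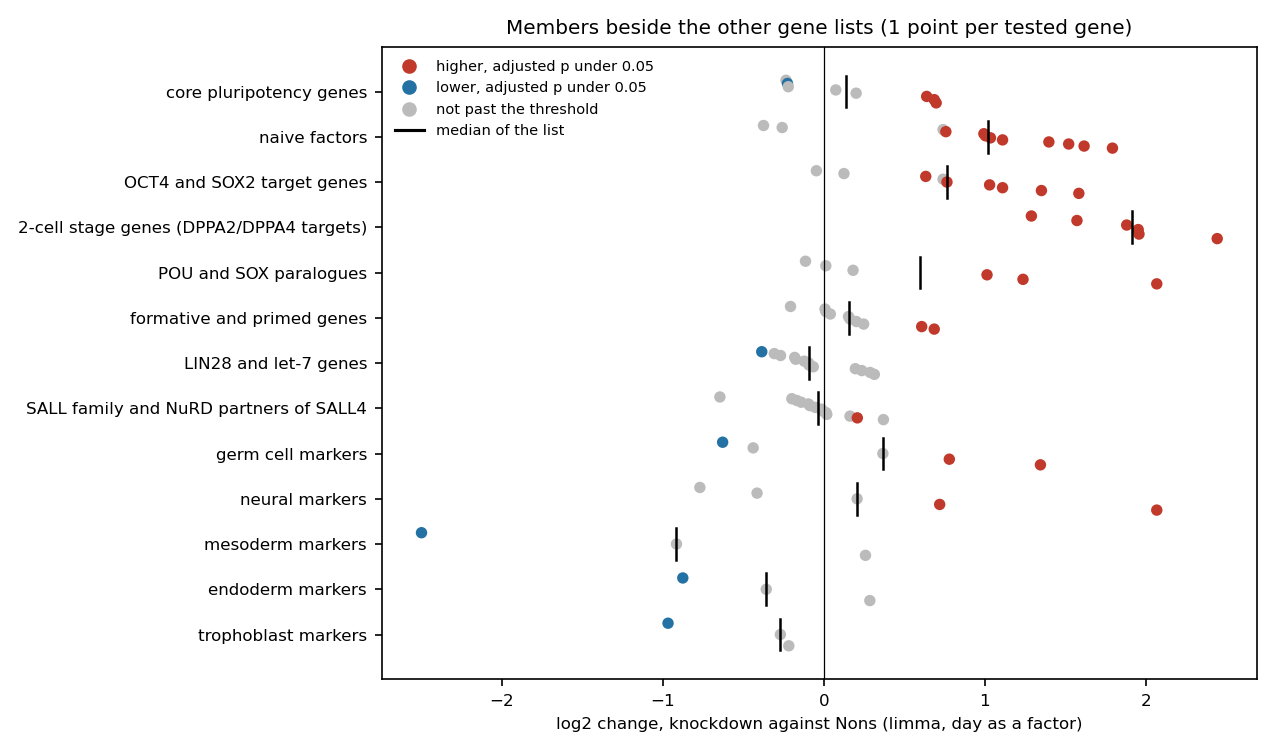
Log2 change in knockdown against Nons from limma (x axis) for the core pluripotency genes and for each other list (y axis), 1 point per tested gene, coloured by call, with a line at the list median. The naive factors centre on 1.02, the core pluripotency genes on 0.14 and the LIN28 and let-7 genes on -0.09.

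Markers of other cell types moved with the groups in part. Here too 6.88% of all tested genes were higher and 4.77% lower. Of 5 tested germ cell markers Dazl (1.35) and Ddx4 (0.78) were higher and Dnd1 (-0.63) was lower. The summed CPM of the 6 listed ran from 77.5 to 364 in Nons, 69.6 to 584 with Smarcc1.6 and 76.6 to 517 with Smarcc1.7. At Day0, in undifferentiated cells, this sum was 951, above each shRNA library, and Dazl stood at log2 CPM 9.68. Of 5 tested neural markers Sox1 and Tubb3 (0.72) were higher, while Pax6 (0.21), Nes (-0.41) and Zfp521 (-0.77) were not called. Sox1 passed the filter only through the hairpin libraries, and Tubb3 was at log2 CPM 7.25 at Day0, above each shRNA library. The sum of the 6 listed neural markers was 68.4 to 335, 79.1 to 403 and 78.4 to 291. Of 3 tested mesoderm markers the Brachyury gene T was lower (-2.50, limma adjusted p = 0.0341), and the sum of the 6 listed was 10.99 to 377, 16.6 to 205 and 13.9 to 160. T was called with neither hairpin alone. On day 4 its log2 CPM was 0.97 in Nons, 1.28 with Smarcc1.6 and 1.02 with Smarcc1.7. On day 7 it was 7.49, 4.19 and 2.04 in the same order.

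Of 3 tested endoderm markers Sox17 was lower (-0.88), and the sum of the 5 listed was 4.74 to 24.0, 4.42 to 11.05 and 3.64 to 10.9. Of 3 tested trophoblast markers Tfap2a was lower (-0.97), and the sum of the 4 listed was 22.7 to 1342, 23.4 to 1241 and 20.7 to 1133. No listed marker was under 3 reads in every library of a shRNA group (0 genes), whereas at Day0 Mesp1, Tbx6, Hand1, Acta2, Sox1 and Neurog2 were. The part of these cell types in the values of Sox2, Dppa2, Dppa4 and Sall4 was not tested.

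Likeness between patterns was measured as Pearson's r over the 12 libraries of days 4 to 7, which share days and, for the hairpins, the same Nons libraries. Among the 8 genes, Dppa2 and Dppa4 were the closest pair (r = 0.981), and r was 0.928 and 0.9301 between Sox2 and each of them. After each day's mean of 3 libraries was subtracted, r was 0.847 between Dppa2 and Dppa4, 0.831 between Sox2 and Dppa4 and 0.688 between Lin28a and Lin28b. Sall4 and Dppa4 were opposed on that measure (r = -0.765). Pou5f1 had r between 0.268 and 0.629 with the other 7 before subtraction.

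Of all 13406 genes, those most like Sox2 were Myh3 (r = 0.990) and Trim2 (0.989), and after subtraction of the day mean Pecam1 (0.993). For Dppa4 they were Zfp951 (0.994) and Sycp1 (0.988), then Fez1 (0.991), and for Dppa2 Txlng (0.991) and Gm14444 (0.989), then Fam113b (0.972). For Sall4 they were Spen (0.994) and Raver1 (0.987), then Vcp (0.966). For Lin28a they were Scaf4 and Cbx2 (both 0.966), then Ptn (0.968), and for Lin28b Tbpl1 (0.985) and E130309D02Rik (0.979), the second of which also led after subtraction (0.968). For Utf1 they were Ankrd34a (0.957) and Amn (0.946), then Ncan (0.965), and for Pou5f1 Gm19553 (0.992) and Trub2 (0.966). With 12 points and so many genes, values of this size are a description of these libraries.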

How the data were processed

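RNA was extracted from 13 libraries of mESCs, 1 at Day0 and 12 over days 4 to 7 (Nons, Smarcc1.6 and Smarcc1.7, 1 each per day). The authors prepared TruSeq libraries for a NextSeq500 run with paired ends, used trim_galore for trimming and tophat or hisat2 for mapping to mm10 with strain SNPs masked, and the submitters' processing notes name bcl2fastq and TopHat2 2.0.12. They quantified genes in Seqmonk, and the deposited values are log2 CPM of mapped reads. The annotation release and strand setting are not given in the sources used here. Every column was used (0 left out).

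Low values fell on steps of whole reads (100% within 0.1 of a read, for values under 200 reads), which gave the depth, and 0 reads were written as 0.9. Limits given as reads cover counting error only, and the 95% intervals come from limma and cover the spread between libraries.

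Genes whose log2 CPM averaged 0 or more were fitted with limma 3.58.1 in R 4.3.3 (lmFit, eBayes with a trend), with Benjamini-Hochberg adjustment over 13406 genes and a threshold of 0.05. Knockdown and each hairpin were compared with Nons with day as a factor, so days block the libraries. The change per day had group as a covariate, and the interaction was knockdown by day. The fits were tested on simulated counts, drawn independently around the mean of each gene, with 200 genes changed by 1 or 0.5 log2 units. For knockdown, 100% and 92% of the changed genes were called, and 6.1% and 4.17% of the calls were false. That simulation held no change with day, so it cannot show how the fits do on a time course.

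The members and gene lists were chosen with earlier results of these data known. Named are all members, Smarcc1, per list at most 4 called genes of largest change, 2 genes of highest r and 1 after day means were subtracted, and Nanog, Esrrb, Zfp42, Fgf5, Otx2 and Dnmt3b. Pseudogenes, antisense genes, Sox2ot and list or marker genes named beyond this were chosen after their values were seen. Copies were found with blastn among GENCODE M21 transcripts (at least 95% identity over 75 bases). Alternatives were other filters, scalings, pseudocounts, weights, models and subsets. Python 3.11.15, numpy 2.4.6, pandas 2.3.3 and matplotlib 3.10.9 were used.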

Additional observations from a re-analysis of the deposited data

Results flagged for a closer look

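Among 46 groups of 4 libraries (the days of 1 group, for levels, differences and pseudogene shares), 7 had a day that stood apart. A rate of 1 in 20 would give 2.3. The pseudogenes were chosen after their values were seen, so the count of 7 cannot be set against that number. Since each group is a time series, a steep step from one day to the next also meets the criterion.

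Of these 7, 6 were the pseudogene shares on day 6. The share of Gm9788 in the sum with Dppa2 was 51.0% in Nons, 55.6% with Smarcc1.6 and 54.8% with Smarcc1.7 on that day, against at most 17.3%, 13.8% and 13.2% on the other days. The share of Gm5501 in the sum with Dppa4 was 3.92%, 3.70% and 3.77%, against at most 0.525%, 0.492% and 0.347%. The day and the lower share of reads in genes cannot be told apart for these 3 libraries.

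The remaining one was the difference of Dppa2 from same-day Nons with Smarcc1.6 on day 7, 1.48, against 0.66 to 0.77 on the other 3 days. The Nons library of day 7, at log2 CPM 2.86, is the lowest of the 13 for this gene.

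Utf1 moved in opposite directions early and late. It was lower than Nons in 4 of 4 comparisons on days 4 and 5 and higher in 4 of 4 on days 6 and 7. The difference changed by 0.44 per day in limma (adjusted p = 0.865), so it did not pass over all genes.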

How the results depend on the processing

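Over 1176 alternative values of single changes of the 8 genes, 1046 kept direction and side of the threshold, 53 lost the call, 12 gained one and 65 changed sign. The number of the 8 genes called in knockdown, 4 as reported, was 2 without the variance trend, 2 on days 6 and 7 alone and 0 with no replicate block (day left out), where the change over days enters the spread and 4 genes of all tested were called, against 1561. On days 4 and 5 alone 998 genes were called and on days 6 and 7 alone 939. For Smarcc1.6 the number of members was 0 with no replicate block and 1 when only that hairpin and Nons were fitted, with 0 and 57 genes against 1247. For Smarcc1.7 it was 2 without the filter, and 0 with no replicate block or when only that hairpin and Nons were fitted (0 genes in both, against 329), and 188 genes were called with the filter at 2 and 145 without the variance trend. At an unadjusted p under 0.05, limma gave 353 genes for Smarcc1.6 and 238 for Smarcc1.7 with no replicate block, and 2363 for Smarcc1.7 fitted with Nons alone.

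Leaving out a library or a day gave 1 to 4 members in knockdown, 2 to 3 for Smarcc1.6, 0 to 2 for Smarcc1.7 and 4 to 7 for the change per day, with 287 to 2003, 178 to 1694, 1 to 1052 and 6679 to 8371 genes. In knockdown Dppa4 alone was left without day 6, and 2 members without day 4 or 5, either hairpin of day 4 or 5, or Nons of day 5, 6 or 7. With Smarcc1.7 no member was called without day 5 or 6 (0), and 2 were without day 4, Nons of day 4 or Smarcc1.6 of day 7. Utf1 lost its fall per day without day 4, 5 or 7, Nons of day 4 or 7, or Smarcc1.6 of day 7.

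Sign changed in these cases. Utf1 in knockdown was -0.22 on days 4 and 5, Lin28a per day was -0.073 with libraries centred on their medians, and the knockdown by day was 0.00197 for Sall4 with that centring, -0.00142 for Dppa4 with 1 added to the CPM and -0.0126 for Dppa2 with voom on recovered reads. With a library or day left out, the change per day ran from -0.27 to 0.30 for Lin28a, -0.0798 to 0.54 for Lin28b and -0.23 to 0.23 for Pou5f1. The knockdown by day ran from -0.11 to 0.40 for Dppa2, -0.0808 to 0.11 for Dppa4, -0.062 to 0.41 for Lin28a, -0.32 to 0.40 for Lin28b, -0.37 to 0.17 for Pou5f1, -0.20 to 0.18 for Sall4 and -0.17 to 0.75 for Sox2. Between hairpins it was -0.0793 to 0.0892 for Lin28a, -0.11 to 0.18 for Lin28b, -0.0342 to 0.11 for Sall4 and -0.25 to 0.0679 for Utf1. Utf1 ran from -0.10 to 0.35 in knockdown, -0.16 to 0.29 with Smarcc1.6 and -0.0632 to 0.45 with Smarcc1.7, and Pou5f1 from -0.0457 to 0.0874 with Smarcc1.7. Apart from the block and fits on fewer libraries, the cause was not tested. The sums with pseudogenes were added after seeing the data. A count of 3 reads is a log2 CPM of -2.22 in the shallowest library and -4.40 in the deepest.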
